A study of Mus musculus with 2 samples.

Results

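A small number of cells with a neutrophil profile remained in lung suspensions that had been sorted to remove leukocytes, 143 in a wild-type (WT) library and 19 in a library labelled Plaur KO. They are 162 of the 21547 cell barcodes deposited for both libraries. A barcode was taken when it held at least 500 genes and at most 15% mitochondrial transcripts, at least 3 of the 5 genes S100a8, S100a9, Retnlg, Csf3r and Cxcr2, and at least 5 S100a8 and S100a9 transcripts together. It could hold no more than 1 of 6 lymphocyte or C1q macrophage markers (Cd79a, Ms4a1, Cd3e, Cd3d, C1qa, C1qb) and no more than 1 of 6 structural-cell markers (Cdh5, Cldn5, Lamp3, Slc34a2, Dcn, Col1a2). The levels of these 17 genes chose the cells, and are given as a description.

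Lungs came from C57B6/J WT mice and from Plaur–/– mice on the strain labelled C57B6/J. Both genotypes had been sensitised with lipopolysaccharide (LPS) and ovalbumin (OVA) on days 0 and 7 and then exposed to OVA aerosol on day 14, so no unexposed lung is in the comparison. Digested lung was flow-sorted for cells negative for CD45.2, the form of the leukocyte surface protein CD45 carried by this strain, and 1 library per genotype was made in droplets and sequenced from the 3′ ends of transcripts, cell by cell. The design names 8 mice per genotype, but how many entered each library, which part of Plaur is deleted and whether intronic reads were counted are not stated in the sources used here. The labels call the sorted material total lung cell lysate. The libraries held 57028943 and 51529241 unique molecular identifiers (UMIs, 1 per captured transcript) in 11776 and 9771 barcodes, and the cell filters kept 10842 and 9109 barcodes. With 1 library per genotype no difference below has a replicate check: every interval is a 95% interval that covers counting error only, and no test was possible.

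Neutrophils are short-lived granulocytes that leave the bone marrow with their granule proteins already made, circulate, crowd the capillaries of the lung and move into inflamed tissue along gradients of chemokines. Circulating cells carry transcripts for calprotectin (S100a8 and S100a9), resistin-like gamma and stefins, whereas cells that have met cytokines or microbial products add chemokines, adhesion molecules and the feedback inhibitors of NF-kB signalling. Plaur encodes uPAR, a membrane-anchored receptor that binds the protease urokinase, works beside the integrin Mac-1 (Itgam with Itgb2) and is displayed by neutrophils and monocytes.

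The promoters of 7 genes named in the results are printed first, from 250 bases before to 50 bases after the transcription start, in RefSeq coordinates of GRCm38.p6. They are the calprotectin pair, Retnlg and the collagenase gene Mmp8 as genes of circulating cells, Cxcl2 and Nfkbia as genes of activated cells, and Plaur. The calprotectin pair is not in the circulating gene list used below, and the levels of Cxcl2 and Nfkbia differed little between the libraries. Each is written 5′ to 3′ on the gene's strand, and capitals mark matches on either strand to TTGCNNAA (C/EBP type), GAGGAAGT (PU.1 type) or to an NF-kB-type motif, GGGA and TTCC with any 2 bases between them.
S100a8 (chr3:90668821-90669120, plus strand): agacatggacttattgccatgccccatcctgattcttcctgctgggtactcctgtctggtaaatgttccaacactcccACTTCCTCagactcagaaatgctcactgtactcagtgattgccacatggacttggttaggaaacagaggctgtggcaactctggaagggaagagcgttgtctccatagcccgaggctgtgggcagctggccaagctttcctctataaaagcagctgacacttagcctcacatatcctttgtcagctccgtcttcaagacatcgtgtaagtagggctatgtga
S100a9 (chr3:90695672-90695971, minus strand): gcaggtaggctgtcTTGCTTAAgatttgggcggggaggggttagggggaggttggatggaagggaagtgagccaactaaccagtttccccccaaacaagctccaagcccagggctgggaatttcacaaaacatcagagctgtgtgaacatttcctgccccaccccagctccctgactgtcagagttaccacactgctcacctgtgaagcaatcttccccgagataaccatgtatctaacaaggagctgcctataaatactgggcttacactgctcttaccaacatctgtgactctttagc
Retnlg (chr16:48872358-48872657, plus strand): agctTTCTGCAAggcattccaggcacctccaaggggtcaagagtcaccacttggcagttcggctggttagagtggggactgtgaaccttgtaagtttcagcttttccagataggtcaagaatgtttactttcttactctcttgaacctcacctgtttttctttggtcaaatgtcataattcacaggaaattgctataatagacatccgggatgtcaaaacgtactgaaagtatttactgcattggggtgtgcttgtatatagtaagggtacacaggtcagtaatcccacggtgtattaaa
Mmp8 (chr9:7558179-7558478, plus strand): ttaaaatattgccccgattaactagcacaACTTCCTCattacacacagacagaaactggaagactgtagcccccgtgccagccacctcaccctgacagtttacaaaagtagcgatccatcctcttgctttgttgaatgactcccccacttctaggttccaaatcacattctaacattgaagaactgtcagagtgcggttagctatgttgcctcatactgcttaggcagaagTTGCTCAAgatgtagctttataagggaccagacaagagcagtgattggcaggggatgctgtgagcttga
Plaur (chr7:24462233-24462532, plus strand): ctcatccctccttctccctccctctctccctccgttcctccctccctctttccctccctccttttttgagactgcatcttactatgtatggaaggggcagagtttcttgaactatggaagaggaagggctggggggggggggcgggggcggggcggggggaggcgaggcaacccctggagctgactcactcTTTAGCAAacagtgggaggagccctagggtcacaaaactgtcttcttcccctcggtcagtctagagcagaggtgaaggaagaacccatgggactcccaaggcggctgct
Cxcl2 (chr5:90903649-90903948, plus strand): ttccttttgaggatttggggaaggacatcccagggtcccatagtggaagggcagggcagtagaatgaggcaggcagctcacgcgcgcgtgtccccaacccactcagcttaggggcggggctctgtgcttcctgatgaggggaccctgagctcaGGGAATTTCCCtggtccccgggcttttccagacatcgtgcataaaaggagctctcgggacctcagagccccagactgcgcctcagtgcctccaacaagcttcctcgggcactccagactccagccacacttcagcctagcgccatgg
Nfkbia (chr12:55492598-55492897, minus strand): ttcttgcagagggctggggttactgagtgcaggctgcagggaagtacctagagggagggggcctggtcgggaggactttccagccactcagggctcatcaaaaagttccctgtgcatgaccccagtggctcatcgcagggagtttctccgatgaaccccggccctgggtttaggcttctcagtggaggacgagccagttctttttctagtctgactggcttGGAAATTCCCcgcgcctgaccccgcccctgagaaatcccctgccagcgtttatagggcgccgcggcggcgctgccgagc
A C/EBP-type match lay in the windows of S100a9, Retnlg, Mmp8 and Plaur, a PU.1-type match in those of S100a8 and Mmp8, and an NF-kB-type match in those of Cxcl2 and Nfkbia. In the Cxcl2 window the match is read on both strands, shifted by 1 base. A match is a description of letters and not a binding site.

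Over all 32851 RefSeq promoter windows, the C/EBP-type letters occurred in 10.8%, the PU.1-type letters in 3.20% and the NF-kB-type letters in 1.47%. Among the secondary and tertiary granule genes, whose proteins fill the granules of maturing neutrophils, 6 of 11 windows held the C/EBP-type letters, those of Adam8, Lcn2, Ltf, Mmp8, Ngp and Slpi. Among circulating mature neutrophil genes 4 of 13 windows did, and among activated or tissue neutrophil genes 2 of 29. The NF-kB-type letters stood in 3 of the 29 windows of activated or tissue genes (Cxcl2, Cxcl3 and Nfkbia), in 1 of 11 of the granule genes (Pglyrp1) and in 0 of 13 of the circulating genes. PU.1-type letters were found in 2 of 11, 3 of 13 and 0 of 29 windows. Windows were found for 11 of 13 granule genes, 12 of 17 circulating genes and 23 of 26 activated genes, and a gene can have more than 1. Hp, Mmp8, Mmp9 and Slpi stand in both of the first lists. Overlapping C/EBP-type and PU.1-type matches occurred in 1 promoter, overlapping PU.1-type and NF-kB-type matches in 6, and C/EBP-type and NF-kB-type matches overlapped in 0.

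The neutrophil-rule cells made up 1.32% of kept barcodes in the WT library (1.11 to 1.55%) and 0.209% in the KO-labelled library (0.126 to 0.326%), a log2 ratio of -2.66 (-3.43 to -1.97). Other cells that carry CD45 were also a smaller share of the KO-labelled library. B-rule cells numbered 198 and 37, with a log2 ratio of shares of -2.17 (-2.72 to -1.66), and T-rule cells 52 and 14, with -1.64 (-2.61 to -0.77). Macrophage-rule cells numbered 5 and 2. Among the cells of these 4 leukocyte rules, neutrophils were 35.9% of 398 in the WT library (31.2 to 40.9%) and 26.4% of 72 in the KO-labelled library (16.7 to 38.1%), and those intervals overlap. All of these leukocytes had passed the CD45.2-negative gate, and their shares of kept barcodes have structural cells in the denominator. AT2-rule cells, the surfactant-making cells of the alveoli, were 37.5% and 65.2% of kept barcodes. The part of the gate or of the denominator in the differences was not tested. Neutrophil number in the lung cannot be told apart from passage through the gate in these data.

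The cell filter on genes passed close to these small cells. Another 19 WT and 6 KO-labelled barcodes met the marker rule with fewer than 500 genes, and 3 WT barcodes exceeded the mitochondrial limit. The lowest gene number inside the filter was 502 in the WT and 519 in the KO-labelled library, and the highest outside it was 485 and 495. On the calprotectin threshold, the lowest sum inside was 6 and 12 UMIs, and the 4 and 2 barcodes left out for that reason alone reached at most 4 and 2 UMIs. Structural markers removed 23 and 3 barcodes that met the positive markers, and lymphocyte or C1q markers removed 1 and 0. All 5 positive markers were present in 80 of the 143 WT and 12 of the 19 KO-labelled cells.

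The cells were shallow. UMIs per cell ran from 823 through a median of 1201 to 8397 in the WT library and from 975 through 1301 to 1873 in the KO-labelled library, against medians of 4997 and 5570 over all kept barcodes. Genes per cell had medians of 614 and 593, and mitochondrial transcripts a median of 0.327% and 0.205% of UMIs. Calprotectin transcripts took from 0.0715% through 7.59% to 26.3% of a cell's UMIs in the WT library and from 1.18% through 10.9% to 30.1% in the KO-labelled library, so the single-cell ranges of the libraries overlap along most of their length. The libraries share 30 barcode sequences, of which 2 are neutrophil-rule cells.

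**Figure D1:**
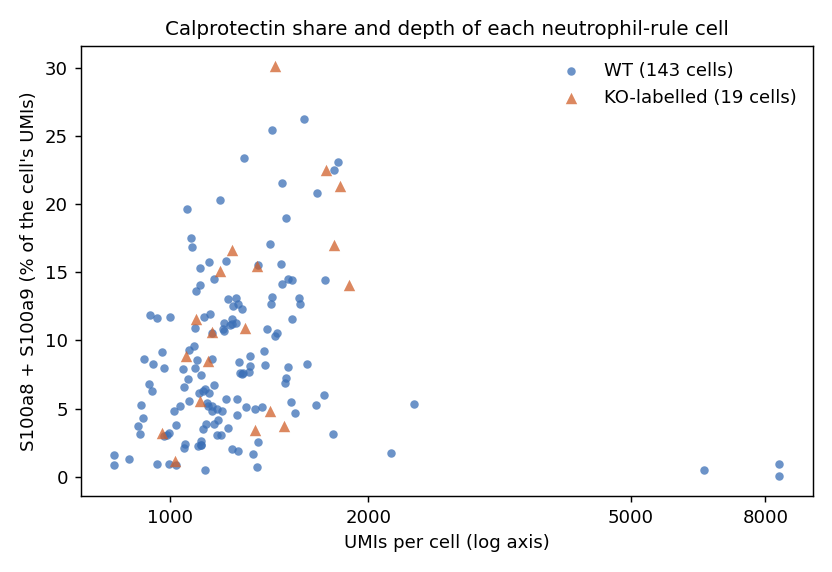
Each point is 1 neutrophil-rule cell, placed by its UMIs (horizontal, log axis) and by the percentage of them from S100a8 and S100a9 (vertical), with WT cells as circles and KO-labelled cells as triangles. The 19 KO-labelled cells lie between 975 and 1873 UMIs, 1 of them at 30.1% stands above every WT cell, and 3 WT barcodes stand apart above 5000 UMIs with a low calprotectin share.

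Of the WT barcodes, 3 stood apart with 8397, 8376 and 6465 UMIs, where the next highest held 2343. They carried 11.8% of the WT neutrophil UMIs, and the doublet caller Scrublet marked 2 of them. Their transcripts included 27, 24 and 31 UMIs of airway-cell markers, and 1 of them held 42 UMIs of B-cell markers. No KO-labelled member was deeper than 1873 UMIs or marked by Scrublet. The 3 barcodes meet the rule and stay in the values below, and list counts that change without them, and the medians that move most, are also given without them.

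Markers of neutrophils that the rule did not use were present. All 22 genes of a second neutrophil list had UMIs in the WT cells and 18 of 22 in the KO-labelled cells, at a summed level of 16664 and 18642 CPM (UMIs of a gene per 1000000 UMIs of the cells). Per cell, that sum ran from 2784 through 17056 to 39295 CPM in WT cells and from 8172 through 16216 to 28259 CPM in KO-labelled cells. It includes Il1r2 (a decoy receptor for interleukin-1), Mmp9 (gelatinase B), Clec4d (a C-type lectin) and G0s2 (a lipase inhibitor). The list is not silent elsewhere: it summed to 5129 and 5363 CPM in AT2-rule cells and to 3762 and 4700 CPM over all other kept barcodes. In macrophage-rule cells it summed to 5150 and 214 CPM, in B-rule cells to 555 and 338 CPM and in T-rule cells to 440 and 119 CPM. Ly6g, the classical surface antigen used to sort mouse neutrophils, had 4 UMIs in the WT cells and none in the KO-labelled cells, and Cd177, Stfa2 and Cstdc5 were also at 0 in the latter. At 25534 UMIs in all, the limit of 3 UMIs set for a KO-labelled count of 0 is 117 CPM, and the upper bound of its 95% Poisson interval is 144 CPM.

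Defining genes of other blood cells were at or near 0, apart from some monocyte and macrophage genes and from B-cell genes in 2 WT cells. Of 10 eosinophil genes, among them Siglecf, Epx and Prg2, none had a UMI in the WT cells and 1 (Ccr3, 1 UMI) in the KO-labelled cells. All 6 basophil and mast-cell genes, 5 dendritic-cell genes and 8 platelet and red-cell genes were at 0 in both. Among 12 monocyte and macrophage genes, 4 had UMIs in the WT cells, Csf1r, Ly6c2, Adgre1 and Cx3cr1 (69 UMIs in 44 cells, 350 CPM). In the KO-labelled cells 2 did, Csf1r and Adgre1 (4 UMIs, 157 CPM). B-rule cells held this list at 307 and 50.1 CPM, T-rule cells at 476 and 166 CPM and macrophage-rule cells at 4155 and 2716 CPM. Ccr2, C1qa, C1qb, C1qc, Ms4a7, Mrc1, Fcgr1 and Marco were at 0 in the neutrophil-rule cells of both libraries. The lymphocyte lists summed to 43 UMIs of B and plasma-cell genes in 2 WT cells with none in the KO-labelled cells, and to 6 and 1 UMIs of T and NK genes. Endothelial genes gave 16 and 0 UMIs, fibroblast genes 2 and 0, and mesothelial genes 2 and 0. Cd79a, Ms4a1, Cd3e, Cd3d, C1qa, C1qb, Cdh5, Cldn5, Dcn and Col1a2 belong to these lists and were limited by the cell rule. Their low values were set in part by that choice and do not bear on cell identity.

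Transcripts of epithelial cells were present and differed between the libraries. The secretoglobin gene Scgb1a1, the main product of airway club cells, stood at 2523 CPM in the WT neutrophils (497 UMIs, in 129 of 143 cells) and at 235 CPM in the KO-labelled ones (6 UMIs, in 5 of 19 cells). The other kept barcodes held it at 37654 and 15947 CPM, so the neutrophil level was 6.70% and 1.47% of theirs. Sftpc, the surfactant gene of AT2 cells, stood at 888 and 1332 CPM, 1.11% and 1.03% of the level in other barcodes. The whole airway list of 5 genes summed to 541 UMIs in the WT and 6 in the KO-labelled neutrophils, where 4 of its genes (Scgb3a1, Scgb3a2, Cyp2f2 and Foxj1) were at 0. The summed airway level per cell ran from 0 through 2377 to 18719 CPM in WT neutrophils and from 0 through 0 to 1726 CPM in KO-labelled ones, and it showed the same order in B-rule cells, which had such transcripts in 189 of 198 WT and 9 of 37 KO-labelled cells. AT2 genes summed to 230 and 43 UMIs, with Sftpb and Slc34a2 at 0 in the KO-labelled cells. Of that list, Slc34a2 and Lamp3 were limited by the cell rule. The part of these transcripts in the differences below was not tested.

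Ptprc, the gene of CD45 itself, was read in the cells that passed the CD45.2-negative gate. Its level was 2391 CPM in WT neutrophils (2180 to 2617) and 2898 CPM in KO-labelled neutrophils (2276 to 3638), with UMIs in 134 of 143 and 16 of 19 cells. T-rule cells held it at 989 and 830 CPM and B-rule cells at 487 and 225 CPM. In AT2-rule cells it was 1.75 and 0.154 CPM and in endothelial-rule cells 9.43 and 1.20 CPM, with a UMI in at most 0.657% of those cells. The part of free RNA in the neutrophil value was not tested. The messenger RNA level says nothing on how much CD45.2 protein these cells displayed. Other leukocyte genes ran with it: Tyrobp, an adaptor of activating receptors, and Srgn, the proteoglycan core that packs granules, had a UMI in every neutrophil-rule cell of both libraries.

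**Figure D2:**
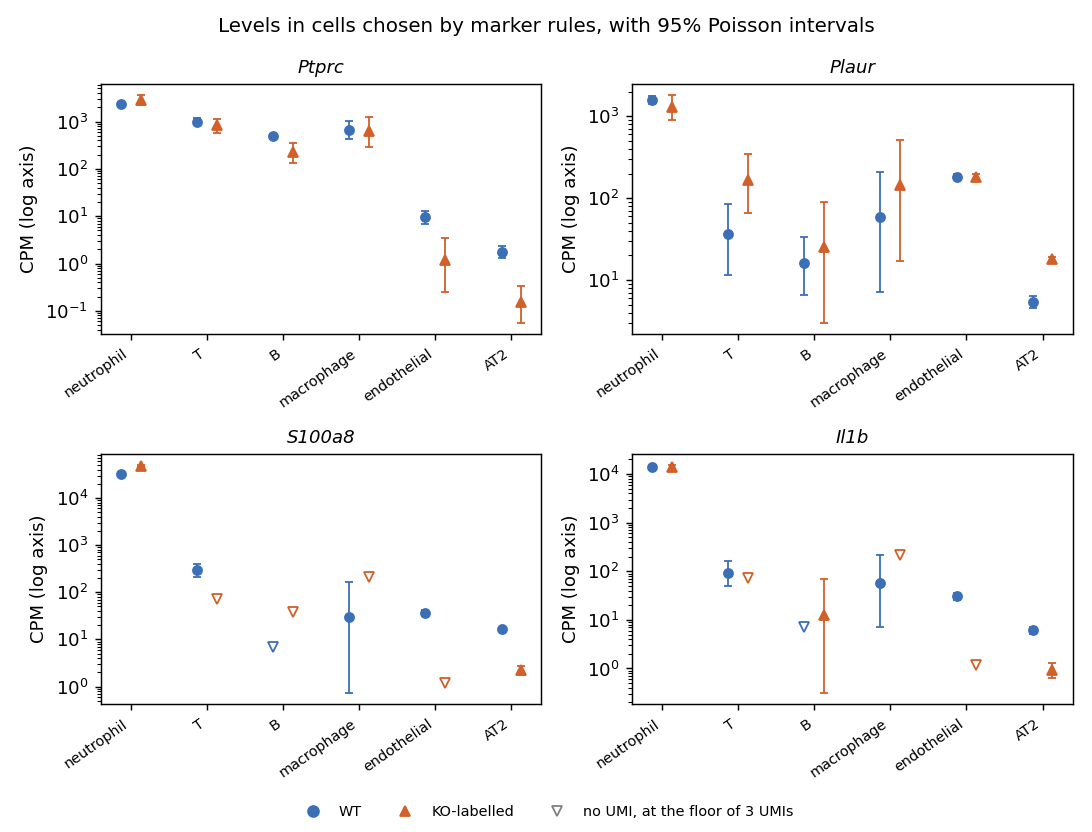
Summed levels in CPM (vertical, log axes) of 4 genes in 6 cell classes chosen by marker rules, with WT as circles, KO-labelled as triangles and bars for 95% Poisson intervals; open inverted triangles mark classes without a UMI, drawn at 3 UMIs. Ptprc stands between 2391 and 2898 CPM in neutrophils and under 10 CPM in endothelial and AT2 cells, and Plaur and Il1b are also highest in neutrophils.

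Plaur, the gene named as deleted, was read in both libraries. Its level in neutrophils was 1574 CPM in WT (1403 to 1759; 310 UMIs) and 1292 CPM in KO-labelled cells (890 to 1815; 33 UMIs), a log2 ratio of -0.28 (-0.85 to 0.24), or -0.46 without the 3 deep WT barcodes. At least 1 UMI was seen in 104 of 143 WT cells (72.7%) and in 15 of 19 KO-labelled cells (78.9%), and a cell held from 0 through 2 to 10 UMIs in the one library and from 0 through 1 to 5 in the other. B-rule cells of the same depth (medians of 1367 and 1265 UMIs) had a Plaur UMI in 3.03% and 5.41% of cells at 16.4 and 25.03 CPM, and the neutrophil values lie above those in both libraries. T-rule cells held 36.1 and 166 CPM, with a UMI in 3 of 52 and 4 of 14 cells, and the 5 and 2 macrophage-rule cells 58.5 and 143 CPM. Endothelial-rule cells held 182 and 180 CPM, and AT2-rule cells 5.46 and 17.9 CPM. The gene spans chr7:24462484-24475968 on the plus strand of GRCm38. A 3′ read outside the deleted part does not check a genotype, and the deleted part is not given, so these values do not decide whether functional uPAR was made.

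Partners of uPAR were read at low depth. Itgam and Itgb2, the chains of Mac-1, stood at 396 and 587 CPM and at 289 and 274 CPM in WT and KO-labelled cells, with log2 ratios of 0.57 (-0.33 to 1.38) and -0.08 (-1.46 to 1.06). The formyl-peptide receptor Fpr1 had 27 and 2 UMIs. Anxa2, a cell-surface cofactor of plasmin formation, stood at 706 and 940 CPM (0.41, -0.28 to 1.05). Urokinase itself (Plau), Plat and Vtn had 0 UMIs in both libraries. Of 20 urokinase receptor and plasminogen genes, 5 had the 20 UMIs over both libraries that a ratio required. None of those differed 2-fold, where 5.85% of all genes were higher and 17.2% lower. Their median log2 ratio was -0.08 (-0.26 without the deep barcodes).

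Over all genes, 1691 reached 20 UMIs in the neutrophil-rule cells of both libraries together. Their median log2 ratio of KO-labelled over WT was -0.11. At least 2-fold higher in the KO-labelled cells were 99 genes (5.85%), and at least 2-fold lower 291 (17.2%). These background shares depend on depth: because the WT cells gave 197013 UMIs and the KO-labelled cells 25534, a gene with 20 WT and 1 KO-labelled UMI already has a log2 ratio of -1.37, and 94 of the 1691 genes had no UMI in the KO-labelled cells. Scaling by trimmed means (TMM) in place of totals would lower all ratios by 0.31. The medians of the plasminogen, adhesion, NADPH oxidase, survival, leukotriene and glycolysis lists given below changed sign under at least 1 alternative.

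**Figure D3:**
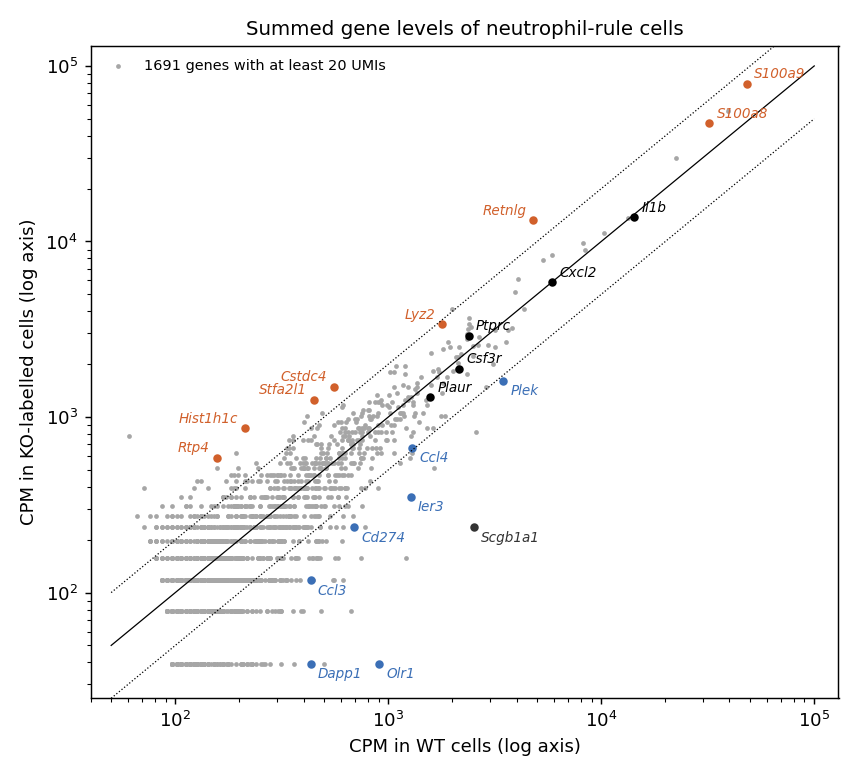
Each grey point is 1 of the 1691 genes with at least 20 UMIs, at its summed CPM in WT (horizontal) and KO-labelled neutrophils (vertical), both on log axes, with equality as the solid and 2-fold differences as the dotted lines; the 94 genes without a KO-labelled UMI are drawn at 3 UMIs. Coloured points are named: S100a9, Retnlg, Stfa2l1 and Rtp4 lie above the solid line, Olr1, Dapp1, Ccl3 and Ier3 below it, and Il1b and Cxcl2 on it.

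The calprotectin genes, whose product fills the neutrophil cytosol, took a larger share of transcripts in the KO-labelled cells. S100a8 stood at 32216 CPM in WT and 47074 CPM in KO-labelled cells, a log2 ratio of 0.55 (0.46 to 0.64), and S100a9 at 48129 and 79267 CPM, 0.72 (0.65 to 0.79). Without the 3 deep barcodes, which hold few of these transcripts, the ratios were 0.38 and 0.55. Per cell, S100a8 ran from 1 through 37 to 191 UMIs in WT and from 6 through 50 to 178 in KO-labelled cells, and no KO-labelled cell lay outside the WT range of that gene. The highest S100a9 count of a cell was 248 UMIs in WT and 261 in KO-labelled cells, and 3 KO-labelled cells lay above the highest WT cell. Both genes belong to the cell rule. Free S100a8 was scarce in both libraries, with a UMI in 1.13% of WT and 0.135% of KO-labelled AT2-rule cells.

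Retnlg, a resistin-like gene transcribed by circulating neutrophils and also part of the rule, stood at 4802 CPM in WT (4501 to 5118) and 13198 CPM in KO-labelled cells (11826 to 14685), a log2 ratio of 1.46 (1.28 to 1.64) that was 1.30 without the deep barcodes. Its cells were unequal. UMIs per cell ran from 0 through 3 to 62 in WT and from 0 through 10 to 99 in KO-labelled cells, and 5 of the 19 KO-labelled cells held 73.6% of that library's Retnlg UMIs. The interval counts transcripts and does not include this spread between cells.

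Of 17 circulating mature neutrophil genes, 14 had at least 20 UMIs, 4 of these stood at least 2-fold higher in KO-labelled cells (5.85% over all genes) and 0 lower (17.2% over all genes), and the median log2 ratio was 0.45 (0.36 without the deep barcodes). Beside Retnlg the higher members were Stfa2l1, a stefin that inhibits cathepsins, with 447 and 1253 CPM (1.49, 0.86 to 2.09), Wfdc21, a small secreted whey-acidic-protein gene, with 401 and 940 CPM (1.23, 0.51 to 1.90), and Ifitm6, with 18 and 7 UMIs (1.59, 0.08 to 2.91). Stfa2l1 and its neighbour Cstdc4 (558 and 1488 CPM, 1.41) belong to a cluster of near-identical stefin genes whose reads can be divided between copies. Both were carried by few cells, Stfa2l1 by 32 of 143 and 8 of 19, and Cstdc4 by 20 of 143 and 7 of 19. Cxcr2 had a log2 ratio of 0.26 and Il1r2 of -0.17, the one negative member. With Retnlg and Cxcr2 left out as rule genes, Stfa2l1, Wfdc21 and Ifitm6 were the higher members among the other 12. The median of those 12 was again 0.45, and under TMM scaling that of all 14 was 0.15.

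Granule genes of the later maturation stages had 7 of 13 members with 20 UMIs, none of them 2-fold apart (5.85% higher and 17.2% lower over all genes). Their median was 0.41 (0.25 without the deep barcodes, 0.10 under TMM scaling). Mmp9 stood at 924 and 1253 CPM (0.44, -0.15 to 0.99), Mmp8 at 325 and 431 CPM (0.41, -0.67 to 1.34) and Slpi, an inhibitor of neutrophil elastase, at 2436 and 3251 CPM (0.42, 0.06 to 0.75). Pglyrp1, which binds bacterial peptidoglycan, had the highest ratio of the 7, 0.94 (0.31 to 1.52), from 614 and 1175 CPM. Lcn2 and Hp, with 0.16 and 0.39, are also made by other lung cells, which held them at 2084 and 3142 CPM and at 1131 and 940 CPM. The lysozyme gene Lyz2 (1797 and 3368 CPM, 0.91) stood at 11766 and 16658 CPM in the other kept barcodes. Ltf, Camp and Ngp, granule genes of the marrow stages, had at most 1 UMI each per library.

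Genes of dividing or immature precursors were missing. Among 8 primary granule and immature genes, Mpo, Elane, Prtn3, Ctsg, Ms4a3, Gfi1 and Fcnb had 0 UMIs in both libraries, and Cebpe had 2 in the WT cells. Of 10 cell-cycle genes none reached 20 UMIs, with 3 and 1 UMIs for Mki67 and 3 and 0 for Top2a.

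Among cytokine and chemokine genes, the most widely carried ones differed little between the libraries. Il1b, the inflammasome-processed cytokine, had UMIs in all 162 cells, from 1 through 18 to 55 per WT cell and from 2 through 18 to 37 per KO-labelled cell. Its summed level was 14258 and 13786 CPM, a log2 ratio of -0.05 (-0.21 to 0.11). Cxcl2, a ligand of the neutrophil's own receptor Cxcr2, stood at 5883 and 5875 CPM (interval of the log2 ratio -0.26 to 0.24) and was carried by 109 of 143 and 15 of 19 cells. Ccl6 and Osm (oncostatin M) had ratios of 0.42 and 0.44.

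Ccl3 and Ccl4, chemokines for monocytes and T cells, had the lowest ratios of a list in which 9 of 11 were below 0. Ccl3 had 85 UMIs in 29 of 143 WT cells and 3 UMIs in 2 of 19 KO-labelled cells. Its levels were 431 and 117 CPM, with a log2 ratio of -1.88 (-4.18 to -0.28). Ccl4 had 254 UMIs in 37 of 143 WT cells (25.9%) and 17 UMIs in 4 of 19 KO-labelled cells (21.1%). Its levels were 1289 and 666 CPM, with a ratio of -0.95 (-1.76 to -0.25). Next came the genes of the growth factor Tgfb1 (-0.75, -3.09 to 0.90) and the chemokine Cxcl3 (-0.53, -2.03 to 0.66). Transcripts of Ccl3 and Ccl4 sat in a minority of cells: 5 WT cells held 51.8% of the Ccl3 and 43.7% of the Ccl4 UMIs. In the list of 19 genes, 11 had 20 UMIs, with 0 at least 2-fold higher, 1 at least 2-fold lower (Ccl3), against 17.2% over all genes, and a median of -0.29. Without the deep barcodes 2 were at least 2-fold lower, Ccl4 being the other at -1.13, and the median was -0.47. Summed over the list, transcripts were level, at 27024 and 26122 CPM (-0.05, -0.17 to 0.067).

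NF-kB target and feedback genes had the lowest median of the lists with at least 5 members to compare. Of 17 genes, 13 had at least 20 UMIs, of which 7 stood at least 2-fold lower in KO-labelled cells against the background of 17.2%, and 0 higher. The median log2 ratio was -1.25, -1.40 without the deep barcodes, and stayed below 0 under all 15 alternatives, from -1.55 to -0.59. Summed over the list, transcripts differed less, at 7944 and 5483 CPM (-0.53, -0.79 to -0.28). Ier3, an early-response gene of stressed cells, led in depth with 251 UMIs in 81 of 143 WT cells and 9 UMIs in 4 of 19 KO-labelled cells. Its levels were 1274 and 352 CPM, a ratio of -1.85 (-3.00 to -0.91). The others were Nfkb1, the p105 precursor of the p50 subunit, with 73 and 3 UMIs (-1.66, -3.97 to -0.05), the ubiquitin ligase gene Birc3 with 100 and 5 (-1.37, -3.03 to -0.10), the deubiquitinase gene Tnfaip3 with 93 and 5 (-1.27), the subunit genes Rel with 55 and 3 and Nfkb2 with 20 and 1, and the adhesion ligand gene Icam1 with 31 and 1. The KO-labelled counts of 1 to 9 UMIs leave wide intervals, and that of Icam1 reaches from -7.36 to 0.58. Members of the same list were level, among them the inhibitor gene Nfkbia (1310 and 1214 CPM, -0.11, -0.70 to 0.43), Nfkbiz (0.26), Nfkbid (-0.05) and Tnfaip2 (-0.17).

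Activated or tissue neutrophil genes overlap that list in 4 genes with 20 UMIs (Icam1, Nfkbia, Tnfaip3 and Ier3). Of 26 genes 17 had 20 UMIs, with 5 at least 2-fold lower (17.2% over all genes), 1 at least 2-fold higher (5.85% over all genes) and a median of -0.64. Without the deep barcodes these were 7, 0 and -0.74. Summed over the list, transcripts were closer to level, at 23339 and 21462 CPM (-0.12, -0.25 to 0.0072). Cd274, the gene of the inhibitory ligand PD-L1, had 136 UMIs in the WT cells and 6 in the KO-labelled cells, 690 and 235 CPM (-1.55, -3.03 to -0.40). Cells with a Cd274 UMI were 44 of 143 (30.8%) and 5 of 19 (26.3%), and 5 WT cells held 33.8% of the WT UMIs. Ptgs2, the inducible cyclooxygenase, stood at 1061 and 627 CPM (-0.76, -1.59 to -0.03). Cxcr4, the receptor that holds ageing neutrophils in marrow and tissue, stood at 589 and 627 CPM (0.09, -0.76 to 0.85). The 1 higher member was Sqstm1, with 22 and 6 UMIs (1.07, -0.52 to 2.42), whose ratio was 0.96 without the deep barcodes. Siglecf, a marker of tissue neutrophils in some mouse lung models, had 0 UMIs in both libraries.

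**Figure D4:**
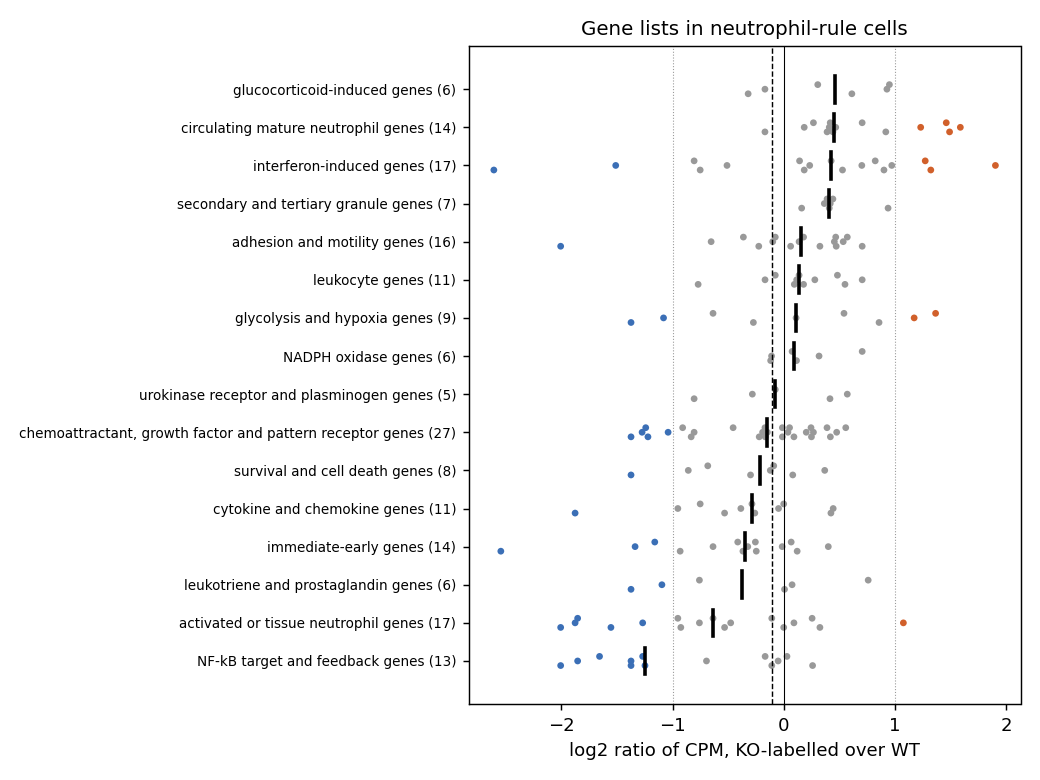
Points are the list members with at least 20 UMIs (number in brackets), placed by the log2 ratio of CPM, KO-labelled over WT; coloured points are at least 2-fold apart, thick bars are list medians, and the dashed line is the median of all 1691 genes. Medians run from -1.25 in the NF-kB list to 0.46 in the glucocorticoid-induced list.

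Receptors by which neutrophils sense their surroundings had a median log2 ratio of -0.15. Of 30 genes 27 had at least 20 UMIs, 0 were at least 2-fold higher and 5 at least 2-fold lower, against 17.2% lower over all genes. Without the deep barcodes 7 were lower and the median was -0.29. Of the 27, Csf3r and Cxcr2 helped choose the cells, and the median of the other 25 was again -0.15. Csf3r, the receptor of the neutrophil growth factor G-CSF, stood at 2147 and 1880 CPM (-0.19, -0.65 to 0.24), Ccr1 at 1700 and 1684 CPM (-0.01), Clec4d at 1173 and 1057 CPM (-0.15) and Csf2rb, the shared chain of the GM-CSF receptor, at 528 and 705 CPM (0.42). The 5 lower genes were Ltb4r1, a receptor for leukotriene B4, Tnfrsf1b, a receptor for tumour necrosis factor, the lectin gene Clec4n, the IgG receptor gene Fcgr3 and the nicotinic-acid receptor gene Hcar2, with 1 to 8 KO-labelled UMIs each. The interval of Fcgr3, from 90 and 5 UMIs, was -2.88 to 0.05.

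Adhesion and motility genes had 16 of 18 members with 20 UMIs and a median of 0.16 (-0.0073 without the deep barcodes). Icam1 alone was at least 2-fold lower and 0 were higher, against 17.2% lower and 5.85% higher over all genes. Cd44 stood at 3665 and 3133 CPM (-0.23) and Selplg, the ligand of P-selectin, at 406 and 587 CPM (0.53, -0.37 to 1.34). NADPH oxidase genes, which make the oxidative burst, had 6 of 8 members with 20 UMIs, none 2-fold apart, and a median of 0.09 (-0.082 without the deep barcodes). Cybb, its catalytic subunit, had 7 and 0 UMIs. Survival genes had 8 of 12 with 20 UMIs, 1 of them at least 2-fold lower (Birc3), against 17.2% over all genes, and a median of -0.21. Mcl1, on which neutrophil survival depends, stood at 2076 and 2193 CPM (0.08, -0.35 to 0.48), and Bcl2a1b, 1 of several near-identical Bcl2a1 copies that can share reads, at 629 and 392 CPM (-0.68, -1.78 to 0.24).

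Interferon-induced genes lay on both sides of 0. With 17 of 28 genes at 20 UMIs, 3 stood at least 2-fold higher (5.85% over all genes) and 2 at least 2-fold lower (17.2%), and the median was 0.42 (0.12 under TMM scaling). Rtp4, a chaperone of receptor trafficking, had 31 UMIs in 21 WT cells and 15 UMIs in 9 KO-labelled cells, 157 and 587 CPM (1.90, 0.91 to 2.83). Rsad2, the antiviral enzyme viperin, had 34 and 11 UMIs (1.32, 0.19 to 2.33), and Oasl1 16 and 5 (1.27, -0.53 to 2.78). Slfn5 went the other way with 47 and 1 UMIs (-2.61, -7.94 to -0.06), as did the GTPase gene Ifi47 with 22 and 1. Irf7, the regulator of the interferon response, had 27 and 2 UMIs (-0.81, -3.92 to 1.19).

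Immediate-early genes, which digestion of tissue also induces, had 14 of 18 members with 20 UMIs, 0 at least 2-fold higher, 3 lower, against 17.2% lower over all genes, and a median of -0.35. Without the deep barcodes 4 were lower, with Ier2 at -1.06, and the median was -0.44. Fos and Junb stood at 1370 and 1488 CPM (0.12) and at 3167 and 3133 CPM (-0.02), and Egr1 had a ratio of -0.37. Jun, Fosb and Klf6 were the lower ones, with 1, 2 and 4 KO-labelled UMIs. Glucocorticoid-induced genes had 6 of 11 members with 20 UMIs, none 2-fold apart (5.85% higher and 17.2% lower over all genes). Their median was 0.46, with Tsc22d3 at 0.95 (-0.29 to 2.03) and Dusp1 at 0.61 (0.27 to 0.93). Leukotriene and prostaglandin genes had 6 of 14, 0 higher and 2 lower (Ltb4r1 and Ptges3), against 17.2% lower over all genes, and a median of -0.38. Without the deep barcodes Ptges3 stood at -0.32, which left 1 lower gene, and the median was -0.25. Alox5ap, the activating protein of 5-lipoxygenase, stood at 1066 and 1802 CPM (0.76, 0.26 to 1.22). Among glycolysis and hypoxia genes 9 of 18 had 20 UMIs, and the median was 0.11 (-0.025 without the deep barcodes). Of these 9, 2 were at least 2-fold higher (Pgk1 and Ldha), against 5.85% over all genes. Another 2 were lower (the glucose transporter genes Slc2a1 and Slc2a3), against 17.2% over all genes. For type 2 response genes 1 of 9 reached 20 UMIs, the signalling inhibitor gene Socs1, with 37 UMIs in the WT cells and 0 in the KO-labelled cells. The interleukin-4 receptor gene Il4ra had 17 and 1 UMIs, and Arg1 and Chil4 had 0.

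Heat-shock chaperone transcripts in the WT neutrophils came for the larger part from the 3 deep barcodes. Hsp90aa1 had 239 WT and 4 KO-labelled UMIs, a log2 ratio of -2.95, but 206 of the 239 were in those barcodes, and without them the ratio was -0.28. For Hsp90ab1 the deep barcodes held 104 of 121 UMIs and the ratio went from -2.39 to 0.26, and for Hspa8 57 of 88 and from -0.70 to 0.62. Of 13 genes 4 had 20 UMIs, 2 of them at least 2-fold lower with these barcodes and 0 without, against 17.2% and 16.2% over all genes. Dynll1, a dynein light chain, likewise moved from -1.85 to -0.82.

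Ranked by the interval bound nearer to 0, the genes lower in KO-labelled cells were led by Olr1, which encodes LOX-1, a scavenger receptor for oxidised lipoprotein that marks a subset of neutrophils in human blood. It lies on the minus strand at chr6:129485244-129507165. In the WT cells Olr1 had 178 UMIs in 37 of 143 cells, up to 22 per cell, and in the KO-labelled cells 1 UMI in 1 of 19, 903 and 39.2 CPM, a log2 ratio of -4.53 (-9.84 to -2.03). Other kept barcodes held it at 13.4 and 6.26 CPM. The interval treats UMIs as independent, and 5 WT cells held 39.3% of them.

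After Olr1 came Dapp1, an adaptor that binds phosphoinositides, with 85 UMIs in 50 WT cells and 1 in 1 KO-labelled cell (-3.46, -8.78 to -0.94), Marcksl1 with 95 and 2 UMIs (-2.62), Susd6 with 146 and 4 (-2.24) and Atp2c1, a Golgi calcium pump, with 109 and 3 (-2.24). The kinase gene Irak2, which acts below Toll-like and interleukin-1 receptors, had 114 and 4 UMIs (-1.89, -3.79 to -0.49), and Socs3, the inhibitor of G-CSF receptor signalling, 154 and 6 (-1.73, -3.20 to -0.58). Plek and Cass4 were the most deeply read of the ranked genes. Plek, pleckstrin, stood at 3472 and 1606 CPM (-1.11, -1.60 to -0.66), with UMIs in 137 of 143 and 11 of 19 cells and per-cell values of 0 through 4 to 21 against 0 through 1 to 8. Cass4, a scaffold at adhesion sites, stood at 2878 and 1488 CPM (-0.95, -1.47 to -0.48), in 128 of 143 and 10 of 19 cells. Txnrd1, thioredoxin reductase, had 77 and 2 UMIs (-2.32). Some of these ratios shrank under the alternatives: Txnrd1 ran from -2.62 to -0.027 and Dapp1 from -3.77 to -0.41. Olr1 ran from -5.01 to -1.57 and Plek from -1.42 to -0.92, and all of these kept their sign.

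On the higher side the ranking held, beside S100a9, Retnlg, Stfa2l1, Rtp4, Cstdc4 and Lyz2, the linker histone gene Hist1h1c with 42 and 22 UMIs (2.01, 1.20 to 2.79) and the core histone gene Hist1h2bc with 82 and 26 (1.29, 0.59 to 1.94). It further held Sla, a Src-like adaptor, with 14 UMIs in 14 cells and 10 UMIs in 5 cells (2.46, 1.13 to 3.74), the adhesion adaptor gene Pxn with 38 and 16 UMIs (1.70), the ubiquitin ligase gene Cbl with 31 and 13 (1.69), and Cmss1 with 2000 and 4112 CPM (1.04, 0.72 to 1.35). Cmss1 also stood higher in the other kept barcodes of that library, at 1265 and 2919.6 CPM.

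Olr1 set apart part of the WT neutrophils, a description made after its values were seen. Among the 140 WT cells other than the deep barcodes, the 36 with an Olr1 UMI held Acod1, the itaconate-making enzyme, at 3675 CPM against 1502 CPM in the 104 without. Ier3 stood at 2631 against 963 CPM, Ccl4 at 2784 against 986, Cd274 at 1348 against 516, Socs3 at 1348 against 650 and Plaur at 2457 against 1526 CPM. Retnlg ran opposite, at 2805 against 6268 CPM, while Cxcr4 (587 and 681 CPM) and Ptgs2 (1370 and 1135 CPM) differed less. Not all circulating-list genes ran with Retnlg: Stfa2l1 stood at 696 against 430 CPM, with UMIs in 13 of 36 and 18 of 104 cells. Depth was similar, with medians of 1244 and 1168 UMIs. All these cells come from 1 library, so the values describe that suspension.

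Single cells of both libraries carried mixtures of the circulating and activated lists. Retnlg and Cxcr2, which helped choose the cells, were left out of the circulating list here, a choice made after the values with them were seen. With each cell thinned to 500 UMIs, the other 15 circulating genes gave from 0 through 5 to 16 UMIs per WT cell and from 1 through 6 to 13 per KO-labelled cell. The activated list gave from 0 through 11 to 56 and from 3 through 11 to 21. Medians of the activated list were thus equal, and 20 of the 143 WT cells lay above the highest of the 19 KO-labelled cells. A larger group can reach further by its number of cells alone, so the highest values cannot be compared directly. Activated exceeded circulating transcripts in 107 of 143 WT cells (74.8%) and 13 of 19 KO-labelled cells (68.4%). Across cells within a library the lists had a Spearman correlation of -0.059 (n = 143 WT cells) and -0.33 (n = 19 KO-labelled cells), between values that share each cell's fixed total of 500 UMIs. With Retnlg and Cxcr2 included, the circulating list reached 27 UMIs in WT and 39 in KO-labelled cells, and activated exceeded circulating transcripts in 59.4% and 42.1% of cells.

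**Figure D5:**
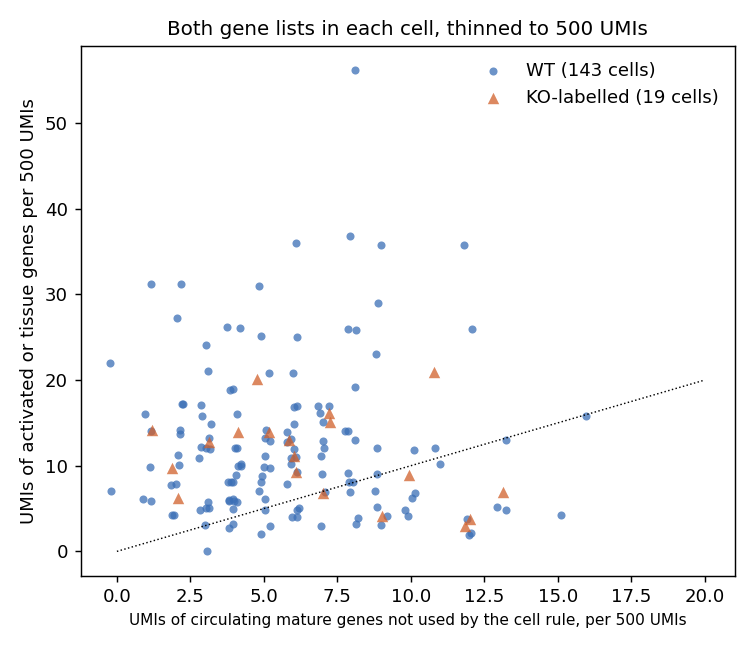
Each point is 1 neutrophil-rule cell thinned to 500 UMIs, placed by its UMIs of the 15 circulating mature genes that the cell rule did not use (horizontal) and of activated or tissue genes (vertical), with a jitter of up to 0.25 UMI so that equal values can be seen; the dotted line marks equal values. The 143 WT cells reach 56 activated-list UMIs and the 19 KO-labelled cells 21, while the highest circulating values are 16 and 13. Highest values depend on the number of cells.

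Against the other kept barcodes, the rule's own genes had to differ, and the contrast is given as a description. Of 1557 genes with 20 UMIs in the WT neutrophils, 324 (20.8%) stood at least 10-fold higher there, and in the KO-labelled library 100 of 183 (54.6%). Genes entered only through their UMIs in the neutrophils, the group where they are then called high. With fewer UMIs in the KO-labelled cells, the same limit admits only genes of higher level there. The shares thus rest on unlike sets of genes and cannot be compared. Among the 40 highest of each library, 31 were the same. Those not used by the rule include Srgn (10273 and 11122 CPM in neutrophils, 93.8 and 55.6 CPM elsewhere), Il1r2, Ccr1, Mmp9, Clec4d, Acod1, Samsn1, Alox5ap, Lilrb4a and Slfn1. Slfn1, a schlafen gene of haematopoietic cells, stood at 609 and 1136 CPM in neutrophils and under 1 CPM elsewhere.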

How the data were processed

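Droplet 3′ single-cell libraries of CD45.2-negative lung cells were used, 1 per genotype. The deposited values are raw UMI counts per gene and barcode, written by the authors with Cell Ranger 7.0.0 per the file headers (the submitters' processing notes list 7.0.0 and 7.1.0, and build mm10). Columns of other series: 0.

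Cells were chosen by marker rule, with the members and the 20 gene lists chosen with earlier results of these data known. B, T, macrophage and endothelial rules needed 2 of their markers, and the AT2 rule Slc34a2, Lamp3 and 20 Sftpc UMIs. UMIs were summed over cells and divided by the class total (CPM). Ratios have exact conditional binomial 95% intervals, CPM exact Poisson and shares Clopper-Pearson intervals. PCR copies were already merged by UMI, and intervals cover counting error only. Genes without a UMI in 1 library stand at a floor of 3 UMIs. Ratios needed 20 UMIs over both libraries, list medians 5 such members. No test was run with 1 library per genotype.

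Named genes are Plaur, the rule's markers, the 25 most abundant in WT cells, those among the 40 highest over other barcodes in both libraries and in 20% of cells, the 4 list members at either end, and the 12 ranked furthest by the nearer interval bound in each direction; the latter leave out mitochondrial, ribosomal, haemoglobin, immunoglobulin, sex-linked, Gm and Rik genes and those over 10 times higher elsewhere. Other list members named in the text, the genes listed at 0 and the Olr1 split were chosen after their values were seen. In the GENCODE M21 annotation of GRCm38, 32158 of 32285 identifiers were found. Cstdc5 was matched by its identifier; 2 list genes, Aldoa and Clec7a, were not analysed here, and some single list members are not reported here. Promoters are RefSeq GRCm38.p6.

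Doublets were marked by Scrublet in scanpy 1.11.5 (expected 8%; 5.69% and 1.92% of kept barcodes marked) and kept, with their removal as an alternative. Other alternatives changed cell filters, marker minimums, scaling (edgeR 4.0.16 TMM), depth, weighting, single cells and low-count limits. Scripts used Python 3.11.15, numpy 2.4.6, pandas 2.3.3, scipy 1.17.1 and R 4.3.3. Only the ratios and their intervals were tested on simulated data, with summed counts that had no spread between cells.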

Additional observations from a re-analysis of the deposited data

How the results depend on the processing

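The 99 genes at least 2-fold higher in KO-labelled cells became 42 under TMM scaling, 56 with totals without genes of other cells, 40 with cells thinned to 500 UMIs, 399 with a limit of 10 UMIs and 18 with 50. The 291 genes at least 2-fold lower became 431 under TMM scaling, 366 with the other-cell totals, 129 when thinned (18.6% of the 692 genes then tested) and 105 with 50 UMIs. Higher genes were 25.4% of those called, against 8.88% under TMM scaling, 13.3% with totals without genes of other cells, 52.9% with 10 UMIs and 14.6% with 50. TMM scaling brought the median of the 1691 genes from -0.11 to -0.42, and the other-cell totals to -0.30. The ratio of shares (-2.69 to -2.45), Plaur (-0.59 to -0.21) and the medians of the granule, circulating, activated, cytokine, interferon and NF-kB lists kept their sign under every alternative run. Among single genes, 70 values moved beyond their interval and 9 changed sign after a 2-fold call. When thinned to 500 UMIs these were Sqstm1 (-0.41), Ltb4r1 (1.91), Slfn5 (0.10), Ptges3 (1.69), Hsp90ab1 (0.59), Jun (0.10), Pgk1 (-0.088) and Sla (-0.088), on fewer UMIs, several at the floor. Hsp90ab1 stood at 0.26 without the barcodes over 5000 UMIs, an alternative chosen after seeing the data. The stricter filter of 1000 genes left no KO-labelled cell and gave no values. No paired analysis was possible because each genotype has 1 library. Depth limits the comparison: 19 cells with 25534 UMIs leave most genes uncounted.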
